A study of Mus musculus with 2 samples.

Results

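The nonclassical (class Ib) genes of the T and M regions of the mouse major histocompatibility complex (MHC) were measured in bone marrow-derived macrophages, as 9 genes chosen by symbol from the 16218 genes with a symbol in the deposited table: H2-T9, H2-T10, H2-T22, H2-T23, H2-T24, H2-M2, H2-M3 and the class I-like predicted genes Gm8909 and Gm11127. The genes were chosen because of their values in these libraries, so what follows describes them and tests nothing. The TKO library came from macrophages of mice carrying mir-106a~363-/-, mir-106b~25-/- and mir-17~92 flox/flox with Lyz2-Cre, so that 3 related microRNA clusters are affected, with mir-17~92 floxed for a Cre driven by the myeloid lysozyme gene Lyz2 and the others carried as null alleles. The WT library came from macrophages of mice with Lyz2-Cre alone. Both genotypes are labelled C57BL/6J. Marrow cells of both were grown for 5 days with 10% serum and 10% L929 supernatant as the source of macrophage growth factor, then given 10 ng/ml lipopolysaccharide (LPS) for 3 h. The age, sex and number of the animals are not given in the sources used here, and no unstimulated cells were analysed here. Each genotype had 1 library of polyadenylated RNA, with 10836855 counts in TKO and 10764519 in WT, so no difference below has a replicate check.

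Class I molecules are heavy chains that sit at the cell surface with beta-2 microglobulin. The classical ones show peptides to CD8 T cells and differ greatly between mouse strains, while the class Ib molecules are less variable, often less abundant, and many have specialised ligands or receptors. H2-T23 encodes Qa-1, which shows a leader peptide of other class I chains to the CD94/NKG2 receptors of natural killer cells. H2-T22 and H2-T10 molecules are ligands of some gamma-delta T cell receptors, and H2-M3 shows N-formylated peptides, such as those of bacteria, to T cells. In macrophages, class I genes are known to respond to interferon and to NF-kB, both of which act after LPS.

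The TKO library held more RNA assigned to these genes, and the difference was very uneven among them. Summed over all 9 genes there were 7120 counts in TKO and 4451 in WT, or 657 and 413 CPM (counts scaled to 1000000 in the library), a ratio of 1.59 (1.53 to 1.65). Values in parentheses after a ratio are its 95% exact counting interval, which covers counting error only. Gm8909 and H2-T9 had 494 and 367 counts in TKO and 0 in WT, Gm11127, H2-T24 and H2-M2 were more than 2-fold higher in TKO, H2-T23 was higher by less, H2-M3 was close to equality, and H2-T22 and H2-T10 were lower. In a bulk library, fewer cells of a type and less RNA per cell cannot be told apart.

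**Figure D1:**
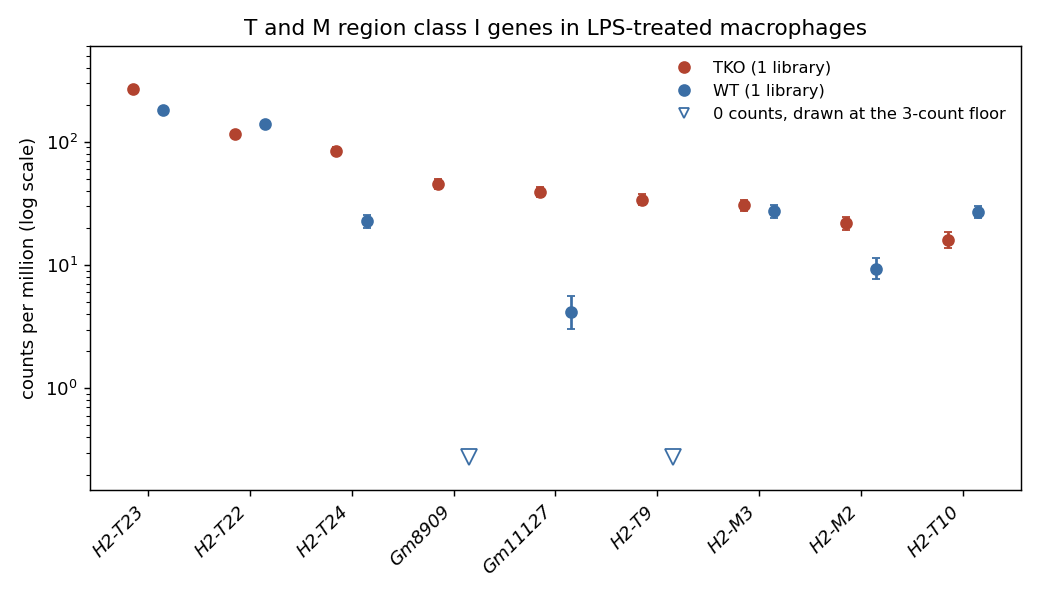
CPM (log axis) of each gene in the TKO library (red) and the WT library (blue). Bars are exact 95% Poisson intervals of the count, and open triangles mark genes at 0 counts, drawn at the floor of 3 counts. H2-T23 and H2-T22 were the most abundant in both libraries, and Gm8909 and H2-T9 had counts in TKO only.

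Levels between genes are compared in FPKM, the authors' deposited value scaled to gene length and library size. In TKO the order was H2-T23 (208 FPKM), H2-T22 (65.6), H2-T24 (39.0), Gm8909 (34.0), Gm11127 (29.4), H2-M3 (21.7), H2-T9 (20.8), H2-M2 (14.4) and H2-T10 (5.51). The counting intervals of H2-T24 and Gm8909, of Gm8909 and Gm11127, and of H2-M3 and H2-T9 overlapped in TKO, so the order within these pairs is not resolved. In WT the order was H2-T23 (141 FPKM), H2-T22 (79.9), H2-M3 (19.3), H2-T24 (between 9.14 and 11.8 by its counting interval), H2-T10 (9.33), H2-M2 (6.16) and Gm11127 (3.12), with H2-T9 and Gm8909 listed at 0. Of the WT neighbours, H2-T24 and H2-T10 overlapped. H2-T23 alone held 47.4% of the summed FPKM of the 9 genes in TKO and 52.3% in WT, and H2-T22 held 14.97% in TKO and 29.7% in WT. The 9 genes made up 11.4% of the FPKM of the 38 genes that the deposited table assigns to the class I orthology group in TKO, and 10.7% in WT.

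Of the 9 genes, 5 exceeded WT by 2-fold or more in TKO and 0 fell short of it by as much. By the same rule (a log2 ratio of CPM + 0.5 of at least 1 in size and an interval that excludes equality) 1.02% of 11662 measured genes were higher and 1.68% were lower. At 1.5-fold, 5 of the 9 were higher and 1 lower, against 2.83% and 5.26% of measured genes. Because these values chose the genes, nothing is read from those counts. All 9 counted as measured (averaging 1 CPM or more in the TKO and WT libraries), but Gm8909 and H2-T9 passed it through the TKO library alone. The median log2 ratio of the 9 genes was 1.17, also when those at 0 in WT were set to their lower limit, beside −0.04 for all measured genes. The authors' deposited comparison too sets 1 library against 1, and nothing is read here from its adjusted values.

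**Figure D2:**
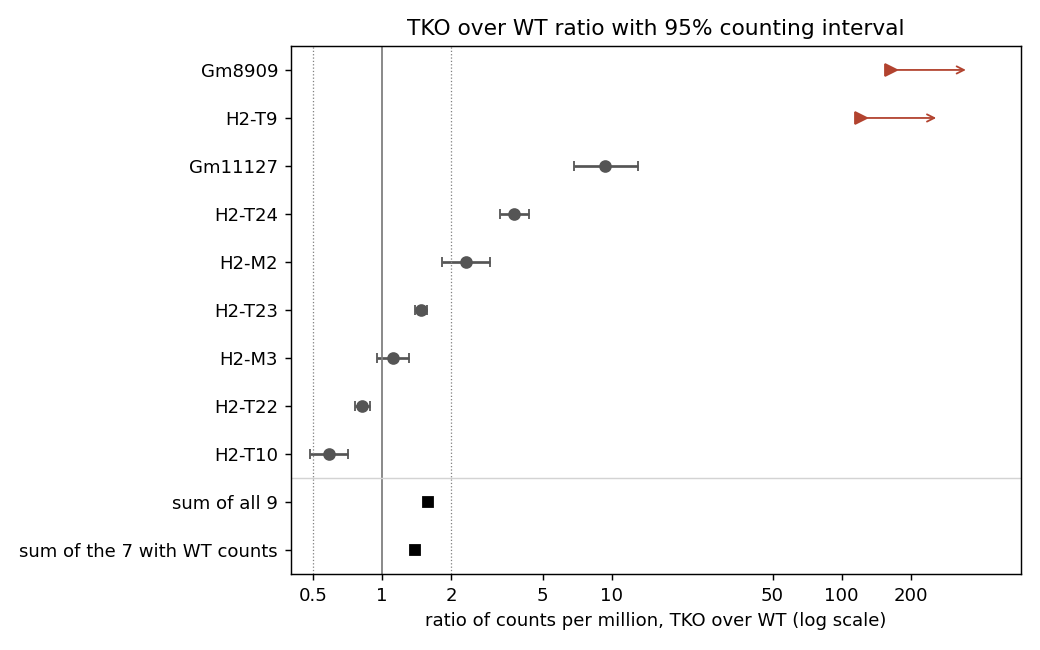
Ratio of CPM, TKO over WT, on a log axis. Points are genes and squares are sums of genes, with exact 95% counting intervals, and arrows start at the bound set by 3 counts for genes at 0 counts in WT. The ratios run from 0.589 for H2-T10 to 9.34 for Gm11127, and H2-T9 and Gm8909 are at least 122 and 164 against a floor of 3 WT counts.

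H2-T23 (gene 15040, chromosome 17, 36029977 to 36032701, GRCm38.p6), the Qa-1 gene, had 2931 counts in TKO, against 1969 in WT. That is 270.5 and 182.9 CPM, a ratio of 1.48 (1.40 to 1.57). It was the largest single part of the net summed difference, 36.0%. Parts of that net difference include −10.3% from H2-T22 and −4.58% from H2-T10, so the positive parts exceed 100% together. H2-T24 (gene 15042, 36003471 to 36020800), whose function is little known, had 921 counts in TKO and 244 in WT, or 84.99 and 22.67 CPM, a ratio of 3.75 (3.25 to 4.34). It added 25.6% of the net summed difference, although its WT level was far below that of H2-T23.

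H2-T22 and H2-T10, the gamma-delta T cell ligand genes, were lower. H2-T22 (gene 15039, 36037128 to 36042742) had 1244 counts in TKO and 1506 in WT, or 114.8 and 139.9 CPM, 1.22-fold lower in TKO (1.13 to 1.31). H2-T10 (gene 15024, 36115871 to 36121444), which RefSeq lists as a transcribed pseudogene on this assembly, had 173 counts in TKO and 292 in WT, or 16.0 and 27.1 CPM, 1.70-fold lower in TKO (1.40 to 2.06). H2-T9 (gene 15051, without a RefSeq position here) had 367 counts (33.9 CPM) in TKO and 0 in WT. That is at least 122-fold higher against a floor of 3 counts in the WT library. The exact interval used for the other ratios, which allows more counts than that floor, has a lower limit of 98.3-fold for H2-T9.

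Of the predicted genes, Gm8909 (gene 667977, 36143812 to 36168602, synonyms H2-gs17 and H2-Tw5l) had 494 counts (45.6 CPM) in TKO and 0 in WT, at least 164-fold higher against the floor, with a lower limit of 133-fold by the exact interval. Gm11127 (gene 100529082, 36055816 to 36058371) had 423 counts in TKO and 45 in WT, or 39.0 and 4.18 CPM, a ratio of 9.34 (6.86 to 12.997). Of 860 genes at 0 counts in WT, the next highest TKO count after those of Gm8909 and H2-T9 was 167. Genes with 1 count in WT reached similar or higher levels in TKO, as LOC547349 (1165 counts in TKO and 1 in WT) and H2-Q10 (376 in TKO and 1 in WT) show, so the pattern is not particular to Gm8909 and H2-T9. Without them, the other 7 genes summed to 6259 counts in TKO and 4451 in WT, a ratio of 1.40 (1.34 to 1.45). The MHC alleles that the mice of each genotype carry were not examined here. Whether class I genes at or near 0 counts in WT differ between the genotypes in sequence or in expression was not tested.

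The M region genes follow farther along the chromosome. H2-M2 (gene 14990, 37480851 to 37483554) had 236 counts in TKO and 101 in WT, or 21.8 and 9.38 CPM, a ratio of 2.32 (1.83 to 2.96). H2-M3 (gene 14991, 37270234 to 37274485), the N-formyl peptide presenter, had 331 counts in TKO and 294 in WT, or 30.5 and 27.3 CPM, a ratio of 1.12 (0.953 to 1.31) whose interval includes equality. A difference of H2-M3 was thus not detectable at this depth.

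Along chromosome 17, genes that were higher and lower in TKO were interleaved. From H2-T24 the order ran through H2-T23 (higher), H2-T22 (lower), Gm11127 (higher), H2-T10 (lower) and Gm8909 (higher). Other class I entries of the interval, none of them among the 9, follow. C920025E04Rik, next to H2-T10, had 357 counts in TKO and 77 in WT, a ratio of 4.61 (3.59 to 5.97). The long noncoding RNA 2410017I17Rik, inside the RefSeq span of Gm8909, had 243 counts in TKO and 190 in WT, a ratio of 1.27 (1.05 to 1.54). H2-Bl had 12 counts in TKO and 0 in WT, and H2-T3 and H2-M5 were at or near the floor in both, with 3 and 4 counts in TKO and 3 and 0 in WT. Gm6034 had 9 counts in TKO and 17 in WT, a ratio of 0.526 (0.207 to 1.25) that includes equality. These 6 entries were chosen after their values were seen. Of 25 other genes of the interval and its flanks that had entries, 21 were measured, with a median log2 ratio of −0.08. Of these, 0 were at least 1.5-fold higher and 1 was lower, against 2.83% and 5.26% of all measured genes. Nothing is read from that count. The lower gene, Ier3, an immediate-early gene, had 584 counts in TKO and 928 in WT, 1.60-fold lower in TKO (1.44 to 1.78).

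**Figure D3:**
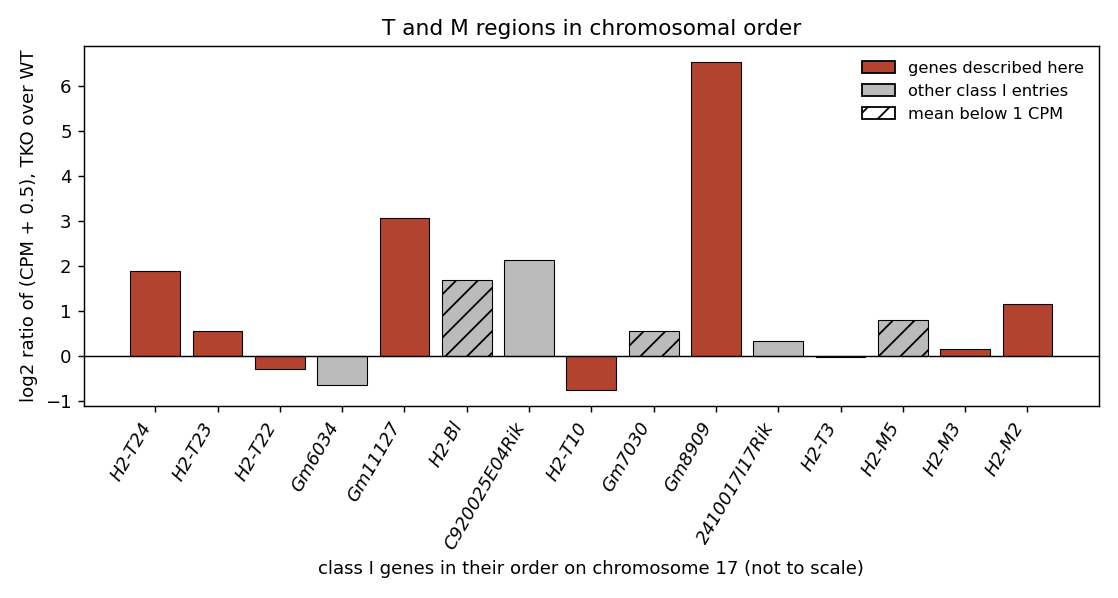
Log2 ratio of (CPM + 0.5), TKO over WT, for the 15 class I entries of the T and M regions in their order on chromosome 17 (spacing not to scale). Red bars are genes described here, grey bars other class I entries, and hatching marks a mean below 1 CPM. H2-T22 and H2-T10 lie below 0 with Gm11127 above 0 between them, and the bar of Gm8909, at 0 counts in WT, depends on the added 0.5 CPM.

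Class I genes are similar in sequence, so the deposited estimates can divide reads among them. All 9 genes had a fractional estimate in TKO, and so did all 7 with counts in WT, against 20.6% of all genes in TKO and 20.8% in WT. Coding sequences from GENCODE release M21 were compared for the 8 genes found there, all but H2-T9. H2-T10 and H2-T22 were 96.9% identical over 1137 aligned bases, the closest pair among the 8. Gm8909 was nearer to the classical genes, at 88.7% identity to H2-D1 and 86.8% to H2-K1, than to any of the others, the nearest being H2-T23 at 82.5%. H2-T24 stood farthest off, at 65.2% to 68.6% identity to the rest.

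**Figure D4:**
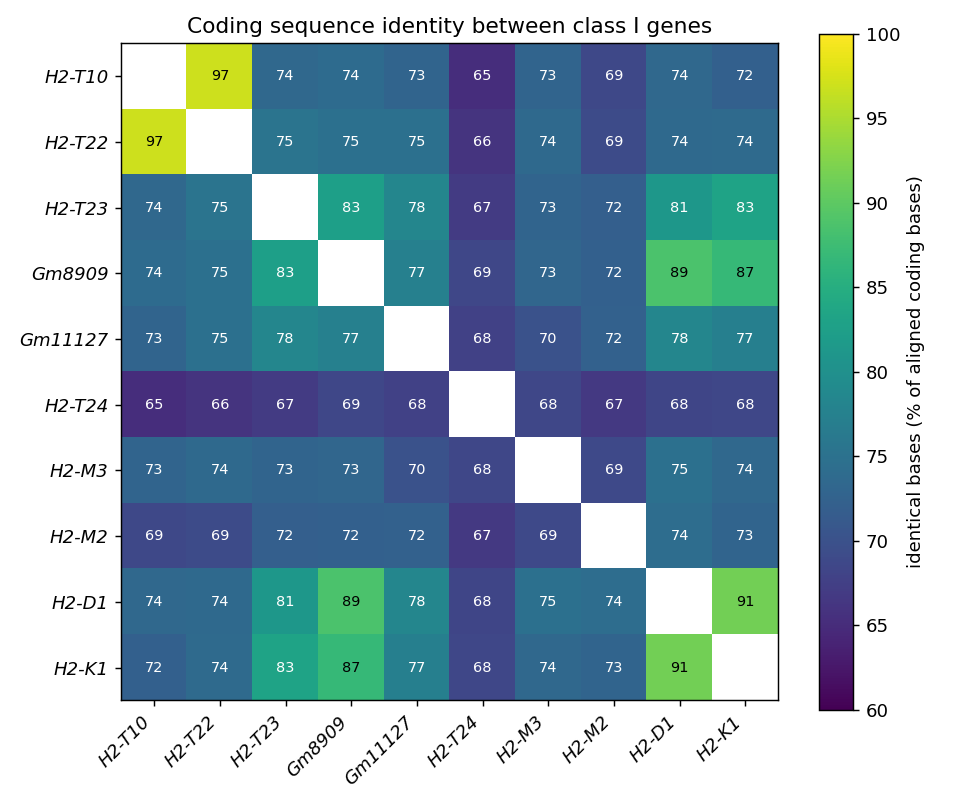
Percent of aligned coding bases that are identical between pairs of class I genes, for the 8 genes with a GENCODE transcript and the classical genes H2-D1 and H2-K1. H2-T10 and H2-T22 form the closest pair (96.9%), and Gm8909 is closest to H2-D1 (88.7%).

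The share of a gene's transcript sequence that is found in another gene bears on how well reads can be placed. Of all stretches of 50 bases in a gene's annotated transcripts, counted on both strands because the strand setting is not given in the sources used here, 78.3% of those of Gm11127 occurred in another gene. The share was 53.5% for H2-T22, 50.4% for H2-T10, 26.4% for Gm8909 and 14.5% for H2-T23. It was 3.17% for H2-T24, 1.61% for H2-M2 and 0.576% for H2-M3. In GENCODE, H2-T22, H2-T23 and H2-T24 overlap the antisense gene A930015D03Rik. H2-T10 overlaps the antisense gene BC023719 and, on its own strand, Gm7030. Gm8909 overlaps Gm20478 and Gm11127 overlaps Gm6034. These are overlaps of gene spans, introns included. H2-T10 and H2-T22 shared most with each other, at 31.7% of the 50-base stretches of H2-T10 and 31.2% of those of H2-T22. Of its stretches, H2-T22 shared 26.5% with A930015D03Rik, and H2-T10 shared 24.9% with BC023719 and 0.085% with Gm7030. Gm8909 shared 18.3% with Gm20478, and Gm11127 shared 40.2% with Gm6034 and 38.2% with Gm7030. No such stretch was found between A930015D03Rik and H2-T23 or H2-T24. Reads from shared stretches cannot be told apart. Strand, where known, would separate only those of antisense genes. How far divided reads set the values was not tested.

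The deleted clusters make microRNAs of 4 seed families, and mature forms from mir-17~92 (RefSeq, GRCm38.p6) are shown because the comparison asks what changes without them. Capitals mark the seed, bases 2 to 8, which pairs with messenger RNA.
mmu-miR-17-5p: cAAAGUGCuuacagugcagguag
mmu-miR-18a-5p: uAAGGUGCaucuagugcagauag
mmu-miR-19b-3p: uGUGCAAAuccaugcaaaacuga
mmu-miR-92a-3p: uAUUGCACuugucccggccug
No match to any of the 4 seeds (the reverse complement of all 7 seed bases) was found in the longest annotated 3' untranslated region of any of the 8 genes matched. Those regions were 209 to 1041 bases long. Among 7959 genes with a region in that range of lengths, 14.5% held at least 1 such site, and among all 21028 genes 28.8%. Mir17hg, the host transcript of mir-17~92, had 16 counts in TKO and 16 in WT. A count per gene does not show which part of the transcript the reads came from, so it does not check the deletion, and the mature microRNAs were not analysed here.

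Promoters of 6 of the 9 genes, all but H2-T9, H2-T10 and H2-T24, were found in the RefSeq table, each 250 bases before to 50 after the annotated start. The RefSeq span of Gm8909 reaches 36168602, upstream of the start used. Part of its printed sequence before the start therefore lies inside the gene span. Those of the abundant H2-T23 and H2-T22, and of Gm8909, which had counts in TKO only, are shown 5′ to 3′. Capitals mark matches on either strand to the interferon-stimulated response element (TTTC, 2 bases of any kind, TTTC), the kappa B motif (GGG, 5 bases of any kind, CC), the CCAAT box and TGATGAC, which resembles the X2 box of class I promoters.
H2-T23 (chr17:36032652-36032951, minus strand): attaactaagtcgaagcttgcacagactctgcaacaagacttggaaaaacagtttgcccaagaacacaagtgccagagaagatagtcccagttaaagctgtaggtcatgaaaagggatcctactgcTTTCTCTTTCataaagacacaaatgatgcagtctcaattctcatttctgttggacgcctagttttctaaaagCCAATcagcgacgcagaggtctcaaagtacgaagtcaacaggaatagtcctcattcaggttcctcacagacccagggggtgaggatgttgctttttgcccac
H2-T22 (chr17:36042693-36042992, minus strand): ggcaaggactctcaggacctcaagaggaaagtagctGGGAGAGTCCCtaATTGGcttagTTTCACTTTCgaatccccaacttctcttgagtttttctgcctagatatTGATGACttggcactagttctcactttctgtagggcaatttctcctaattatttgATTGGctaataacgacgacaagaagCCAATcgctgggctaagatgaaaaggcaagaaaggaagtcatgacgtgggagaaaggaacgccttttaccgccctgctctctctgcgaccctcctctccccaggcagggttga
Gm8909 (chr17:36168488-36168787, minus strand): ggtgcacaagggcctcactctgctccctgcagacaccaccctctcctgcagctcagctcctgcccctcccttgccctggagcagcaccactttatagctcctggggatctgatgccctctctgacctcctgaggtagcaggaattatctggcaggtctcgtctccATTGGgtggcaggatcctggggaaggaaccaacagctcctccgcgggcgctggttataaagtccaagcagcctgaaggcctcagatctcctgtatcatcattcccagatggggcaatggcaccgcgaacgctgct
These motifs were picked with the sequences in view. The response element was found in H2-T23, starting 124 bases before the start, in H2-T22, 191 bases before it, and in Gm11127, 68 bases before it, and in 3.44% of all 32851 promoters. The TGATGAC letters were found in H2-T22, H2-M2 and H2-M3 and in 3.23% of promoters. The kappa B motif was found in the same 3 promoters, with 2 overlapping matches in H2-T22, and in 50.8% of all promoters. The CCAAT box was found in all 6, where one match in H2-M3 overlaps a kappa B match, and in 37.4% of all promoters. Of the genes with the response element, H2-T23 and Gm11127 were higher and H2-T22 was lower in TKO.

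Among other class I genes, the Qa region list was also higher. Of its 9 genes, all measured, 8 exceeded WT by 1.5-fold or more and 1 was lower by as much, with a median log2 ratio of 2.05. By the same rule 2.83% of all measured genes were higher and 5.26% lower. H2-Q10, H2-Q1 and H2-Q2 counted as measured through the TKO library alone. The list was chosen with earlier results of these data known, so nothing is read from its count. As examples among the higher ones, H2-Q8 had 1246 counts in TKO and 189 in WT, a ratio of 6.55 (5.62 to 7.67). H2-Q4 had 5581 and 3419, a ratio of 1.62 (1.55 to 1.69). H2-Q7 was the lower one, with 149 counts in TKO and 289 in WT. Of the classical genes, H2-D1 had 20964 counts in TKO and 22089 in WT, a ratio of 0.943 (0.925 to 0.961), and H2-K1 had 13609 in TKO and 12153 in WT, a ratio of 1.11 (1.09 to 1.14). H2-L had 7378 counts in TKO and 15 in WT, and the 3 classical genes together had a ratio of 1.22 (1.199 to 1.23).

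**Figure D5:**
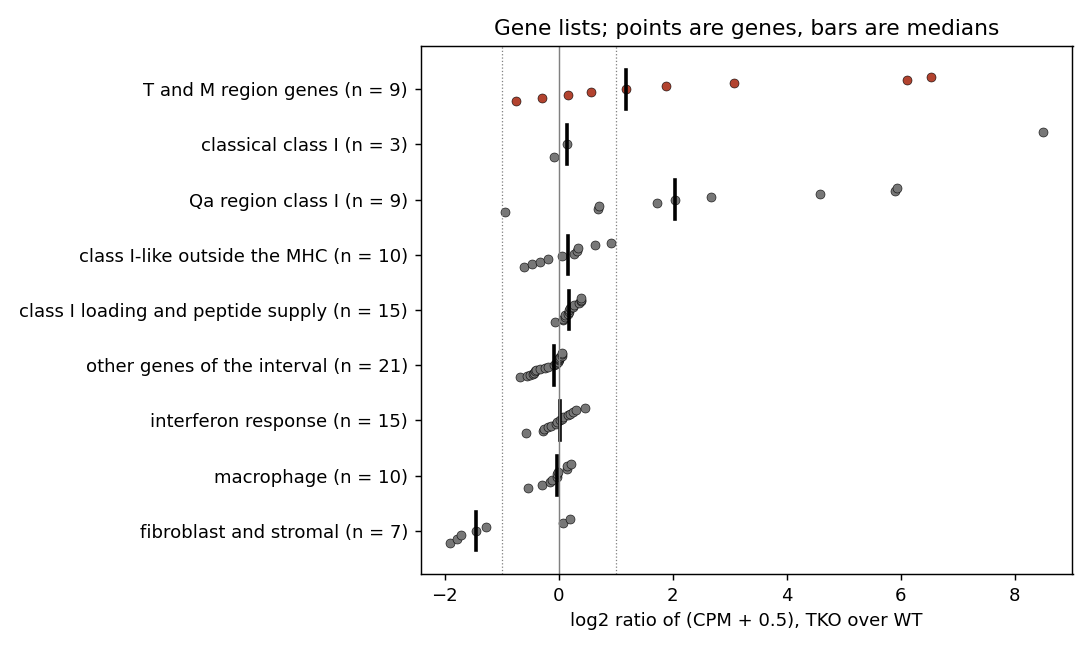
Log2 ratio of (CPM + 0.5), TKO over WT, of measured genes by list. Points are genes, thick bars medians and dotted lines 2-fold, and the T and M region genes are in red. Gm8909, H2-T9, H2-Q10, H2-Q1 and H2-Q2 counted as measured through the TKO library alone. The T and M region genes (median 1.17) ran from H2-T10 and H2-T22 below 0 to far above it. The Qa region genes (median 2.05) did so too, with H2-Q7 below 0. Of the loading, interferon response and macrophage genes, 0 were called 1.5-fold apart. Of all measured genes, 2.83% were called higher and 5.26% lower. The lists were chosen with earlier results of these data known, so nothing is read from the contrast.

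The partners of these molecules differed by less than 1.5-fold. Of 15 genes for beta-2 microglobulin, peptide transport, loading and peptide supply, 14 had log2 ratios above 0 and 0 were 1.5-fold apart. By the same rule 2.83% of all measured genes were higher and 5.26% lower. The list median was 0.18, beside −0.04 for all measured genes, whose upper quartile was 0.125. The highest ratio of the list was 1.31 (1.23 to 1.41), for Psmb10. B2m, the shared light chain, had 37544 counts in TKO and 32984 in WT, a ratio of 1.13 (1.11 to 1.15). Nlrc5, the class I transactivator, had 1781 and 1538 counts, a ratio of 1.15 (1.07 to 1.23). Tap1, the peptide transporter subunit and the exception, had 3278 and 3417 counts, a ratio of 0.953 (0.908 to 1.00). The genes named from this list were chosen after their values were seen. Of 15 interferon response genes, 0 were 1.5-fold apart by this rule, with 8 above 0, 7 below and a median of 0.02. They ran from Ifit3, with a ratio of 1.37 (1.32 to 1.42), to Cxcl10, 1.49-fold lower in TKO (1.46 to 1.51). Ifit3 and Cxcl10, the ends of the list, were chosen after their values were seen.

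The genes whose level in both libraries was most like that of Gm8909, by Euclidean distance of log2(CPM + 0.5) over the 2 libraries, were H2-Q10 (distance 0.46), H2-Q2 (1.18) and LOC547349 (1.25). Nearest to H2-T9 were H2-Q10 (0.25), H2-Ea-ps (1.11) and H2-Q1 (1.30). All 5 are assigned to chromosome 17. With 2 libraries this likeness rests on 2 values a gene. H2-Q10 had 376 counts in TKO and 1 in WT, and H2-Ea-ps, a class II pseudogene, had 167 in TKO and 0 in WT.

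The libraries had the transcripts of macrophages. Of 10 macrophage genes all were measured, 0 were 1.5-fold apart, and their summed level was 7390 CPM in TKO and 7212 CPM in WT. By the same rule 2.83% of all measured genes were higher and 5.26% lower. Lists of other cells had far lower sums: 3.97 CPM in TKO and 5.02 in WT for 5 of 12 natural killer and T cell genes with entries (Klrd1 at 1 and 0 counts, Lck lower at 10 and 32), 1.02 and 1.39 CPM for 4 of 5 B cell genes, and 5.72 and 6.04 CPM for 7 of 7 neutrophil genes (Ly6g at 1 and 0 counts, S100a9 lower at 8 and 21). The 8 fibroblast and stromal genes summed to 155 CPM in TKO and 397 CPM in WT. Of these, 5 of 7 measured were at least 1.5-fold lower, against 5.26% of all measured genes. The 7 dendritic cell genes summed to 199.6 CPM in TKO and 38.0 CPM in WT, most of it from Itgax (2019 and 291 counts). Xcr1 had 90 counts in TKO and 84 in WT, Ccr7 had 26 and 17, and Clec9a had 2 and 0. Klrd1, Ly6g and Clec9a were chosen after their values were seen, as markers at or near 0, and Xcr1 and Ccr7 as markers above it. The part of these cells in the values of the T and M region genes was not tested.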

How the data were processed

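Polyadenylated RNA of 1 TKO and 1 WT library was compared. Per the submitters' processing notes, the tools were HISAT2 2.0.4, Bowtie2 2.2.5 and RSEM 1.2.12 and the build mm10, with no roles stated. The sources used here do not give annotation, read length, filters or strand setting. The authors deposited estimated counts, fractional where reads were shared between genes, which were rounded here, and FPKM, in which 0.01 stands for 0. The authors' log2 ratio, p-value and adjusted value (handled as a score) are the deposited comparison of these 2 libraries, by a test not given; the p-value was not used. Of 16219 entries, the 1 without a symbol (9.23e-06% of the TKO and 9.29e-06% of the WT count) was left out.

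CPM was the count per 1000000 of the library total. Ratios carry 95% Clopper-Pearson (conditional binomial) intervals, and single levels exact Poisson intervals; reads without molecular identifiers are not independent molecules. The floor of 3 counts was 0.277 CPM in TKO and 0.279 CPM in WT. No p-value was computed. The ratio calculation was tested on simulated data. RefSeq positions (GRCm38.p6, the mm10 assembly) matched 8 of the 9 genes by identifier, and GENCODE M21 transcripts matched 8 by symbol. Named genes were the 9 genes, the classical class I genes and the 3 nearest in level to Gm8909 and to H2-T9. Of list members at least 1.5-fold apart, some were named as examples and others were not. Further genes are said to have been chosen after their values were seen. The genes and the 13 lists (152 genes) were chosen with earlier results of these data known. The planned protein identity was replaced by coding-sequence identity. Alternatives were TMM scaling (edgeR 4.0.16), median-of-ratios size factors, other pseudocounts, unrounded counts, FPKM and other filters. Analyses used Python 3.11.15, SciPy 1.17.1, Biopython 1.88 and R 4.3.3.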

Additional observations from a re-analysis of the deposited data

How the results depend on the processing

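Under 8 alternatives (TMM factors, median-of-ratios size factors, pseudocounts of 0.1 and 1 CPM, unrounded counts, the authors' FPKM, no filter, and a mean of at least 10 CPM) each of the 9 genes kept the sign of its log2 ratio in all 72 recomputed values. The count of genes at least 2-fold apart stayed at 5, and the count at 1.5-fold was 6, or 7 with both other scalings, where H2-T23 passed. The summed ratio of the 9 genes lay between 1.59 and 1.64. The log2 ratios of Gm8909 (5.54 to 8.84) and H2-T9 (5.12 to 8.41) depended on the pseudocount, since their WT count is 0. With stretches of 100 bases, 49.9% of those of Gm11127, 31.5% of H2-T22, 28.1% of H2-T10, 15.3% of Gm8909 and 3.15% of H2-T23 occurred in another gene, and 0 of those of H2-T24, H2-M2 and H2-M3. At a mean of at least 10 CPM, 49 of all genes were 2-fold higher and 72 lower; the pseudocount of 1 CPM gave 126 lower and FPKM 106. No paired analysis was possible because each genotype has 1 library and the labels carry no replicate number.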

Other observations

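Class I-like genes outside the MHC, many of them ligands of natural killer or unconventional T cells, showed no common direction. Of 15 on the list, 11 had entries and 10 were measured, 6 above 0 and 4 below, with a median log2 ratio of 0.17. Cd1d1, which presents lipids to natural killer T cells, had 62 counts in TKO and 30 in WT, a ratio of 2.05 (1.31 to 3.29). Fcgrt, the neonatal Fc receptor, had 261 counts in TKO and 397 in WT, 1.53-fold lower in TKO (1.31 to 1.80). These 2 were the genes of the list called 1.5-fold apart, and only 1 was with TMM or median-of-ratios factors. By the same rule 2.83% of all measured genes were higher and 5.26% lower. Mr1, which presents vitamin B metabolites, had 121 counts in TKO and 99 in WT, a ratio of 1.21 (0.923 to 1.60) that includes equality. Raet1d, a ligand of the NKG2D receptor, had 235 and 185 counts, a ratio of 1.26 (1.04 to 1.54), and Ulbp1, another, had 203 and 254, a ratio of 0.794 (0.657 to 0.959). Mr1, Raet1d and Ulbp1 were chosen after their values were seen.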
